A study of Mus musculus with 3 samples.

Results

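The genes described here encode the laminin chains Lama2, Lama4, Lama5, Lamb1, Lamb2 and Lamc1, the nidogens Nid1 and Nid2, the heparan sulfate proteoglycan perlecan (Hspg2) and fibronectin (Fn1). They were chosen by gene symbol and not by a rule on their values, although earlier results of these data were known. They made up 10 of the 23238 symbols in the count tables. All 10 were among the 13163 genes that passed the limit on low values, a level of 1 CPM (a gene's count as a scaled share of its library's counts) on at least 1 substrate. These are called the genes tested, although fold thresholds and not statistical tests were applied to them. C2C12 cells, an immortalized mouse myoblast line that fuses into myotubes when serum is withdrawn, were held for 2 days in myogenic induction medium with 2% horse serum on each of 3 substrates. TCP was tissue culture plastic. GelMA was a hydrogel of 15% w/v methacrylated gelatin, and GelMA-PSS was the same hydrogel with 1% w/v of poly(sodium 4-styrenesulfonate) (PSS), a polymer that carries sulfonate groups and is negatively charged. All samples came from 1 cell line, and RNA sequencing gave 1 library per substrate, so differences between substrates were not tested and carry no replicate error. The comparison of GelMA-PSS with GelMA asks what came with PSS, and that of GelMA with TCP gives the size of difference seen between the substrates without it.

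A basement membrane is a thin sheet of matrix that surrounds each muscle fibre. Laminins are secreted as trimers of 1 alpha, 1 beta and 1 gamma chain and assemble into a network on the cell surface, where integrins and dystroglycan bind the alpha chain. Nidogens bridge the laminin network to collagen IV, perlecan carries heparan sulfate chains that hold growth factors, and fibronectin, which cells bind through integrins, forms fibrils around myoblasts and regenerating fibres.

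The start regions of Nid1, Hspg2, Lamb1 and Lamb2 are shown first. Nid1 was higher on both hydrogels than on TCP, Hspg2 was the member that differed most between substrates before correction for transcript length, and the beta chains are a pair of paralogs whose proportion differed between substrates. The RefSeq table of promoters (GRCm38.p6, 250 bases before to 50 bases after each start) held 6 of the 10 members (Lama2, Lama5, Lamb1, Lamb2, Nid1 and Hspg2). The bases that lie before both the RefSeq and the GENCODE start are printed, 5′ to 3′ on the plus strand, which is the coding strand of these genes. Capitals mark GGGCGG, the GC box bound by Sp1, or its reverse complement CCGCCC. The stretches are chr13:13437352-13437550 for Nid1, chr4:137468553-137468768 for Hspg2, chr12:31265043-31265233 for Lamb1 and chr9:108479612-108479735 for Lamb2.
Nid1: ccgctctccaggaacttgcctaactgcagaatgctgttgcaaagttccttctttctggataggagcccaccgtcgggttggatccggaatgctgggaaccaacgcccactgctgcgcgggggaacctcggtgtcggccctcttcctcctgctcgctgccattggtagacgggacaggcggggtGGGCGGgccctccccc
Hspg2: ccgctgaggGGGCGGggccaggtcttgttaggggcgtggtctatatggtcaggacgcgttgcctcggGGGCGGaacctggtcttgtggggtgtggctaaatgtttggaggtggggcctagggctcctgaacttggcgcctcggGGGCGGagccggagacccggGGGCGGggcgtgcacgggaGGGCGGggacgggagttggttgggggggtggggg
Lamb1: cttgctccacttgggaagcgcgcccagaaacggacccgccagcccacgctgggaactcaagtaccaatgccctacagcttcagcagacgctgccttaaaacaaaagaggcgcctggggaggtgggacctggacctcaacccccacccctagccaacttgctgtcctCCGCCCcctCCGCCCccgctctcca
Lamb2: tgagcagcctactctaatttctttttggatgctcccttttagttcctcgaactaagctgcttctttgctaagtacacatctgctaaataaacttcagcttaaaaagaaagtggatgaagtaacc
The stretch of Hspg2 held 5 GC boxes, that of Lamb1 held 2, that of Nid1 held 1 and that of Lamb2 held none. Over the full windows of 300 bases, 5 of the 6 members held a GC box on either strand, against 35.7% of all 32851 windows in the table. None of the 6 held TATAAA, found in 13.6% of all windows, CAGCTG, an E-box bound by MyoD, found in 16.3%, TGANTCA, bound by AP-1, found in 7.81%, or TGACGTCA, bound by CREB, found in 1.79%. All motifs were searched on both strands. The windows of Hspg2, Nid1 and Lamb1 had a GC content of 70.3%, 64.7% and 63.7%, with 27, 20 and 18 CpG pairs, and that of Lamb2 had 44% with 4, where the median window had 52.7% with 7. Lamb1 and Lamb2, which encode alternative chains for the same place in the trimer, therefore differed in the base composition of their starts. These matches describe letters in a window and not binding.

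The TCP library held 119799095 counts, the GelMA library 87071144 and the GelMA-PSS library 192171443. The myoblast and myotube markers were all measured (9 of 9 past 1 CPM), with a summed level of 21170 CPM on TCP, 15080 on GelMA and 12040 on GelMA-PSS. Desmin (Des), the intermediate filament of muscle, was at 3312, 2896 and 3106 CPM. Embryonic myosin heavy chain (Myh3), a marker of new myotubes, was at 10220, 6428 and 2990 CPM and made up most of the summed difference. The myoblast factors Myf5, at 14.0, 19.8 and 36.0 CPM, and Myod1, at 94.7, 106 and 117, were highest on GelMA-PSS. Of the 9 markers, 3 were lower on GelMA-PSS than on both controls and 2 higher, where 42.1% and 42.6% of all genes tested were. Myog, at 1104, 905 and 1021 CPM, and Tnnt3, at 4169, 2889 and 3070, lay between the controls, as did Des and Cdh15. Corrected for transcript length and GC content, as described below, the log2 ratio of Myh3 to GelMA went from -1.10 to -0.61. That of Myod1 went from 0.15 to 0.03. Once corrected, 5 of the 9 markers were lower on GelMA-PSS than on both controls and 3 higher, against 40.6% and 40.9% of genes. Myog and Tnnt3 no longer lay between the controls, with corrected log2 ratios to GelMA and TCP of -0.09 and -0.32 for Myog and -0.34 and -0.80 for Tnnt3. Markers of endothelium (0 of 4 tested), blood (2 of 3), fat, nerve sheath (1 of 3), bone (1 of 3) and epithelium were summed as well. Each sum lay between 0.0217 and 3.63 CPM in every library. Ptprc, a marker of white blood cells, had 0 counts on TCP and GelMA and 4 on GelMA-PSS. Hba-a1, a globin of red blood cells, was at 0.68, 0.98 and 2.26 CPM. In bulk RNA, fewer cells of a type and less RNA per cell cannot be told apart. CPM values here were scaled by TMM factors, which set the libraries to a common level over most genes. Each interval is a 95% Wilson interval and covers counting error only, not the spread between cultures.

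The members took 0.734% of all counts on TCP, 1.05% on GelMA and 0.605% on GelMA-PSS. Relative to both controls, 7 of the 10 were at their lowest on GelMA-PSS (Lama2, Lama5, Lamb1, Lamb2, Lamc1, Nid2 and Hspg2), which 42.1% of all genes tested were, and 2 were at their highest there (Lama4 and Nid1), which 42.6% were. Lama4 passed the limit on low values only through its GelMA-PSS level, so Nid1 was the 1 member at its highest there that did not owe its inclusion to that library. Fn1 was between its controls. Before any correction for transcript length, perlecan was the member with the largest log2 ratio in size, with a GelMA-PSS level 0.389 times that on GelMA, while the nidogens went apart, Nid1 being 1.57 times as high on either hydrogel as on TCP and Nid2 lower on both.

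**Figure D1:**
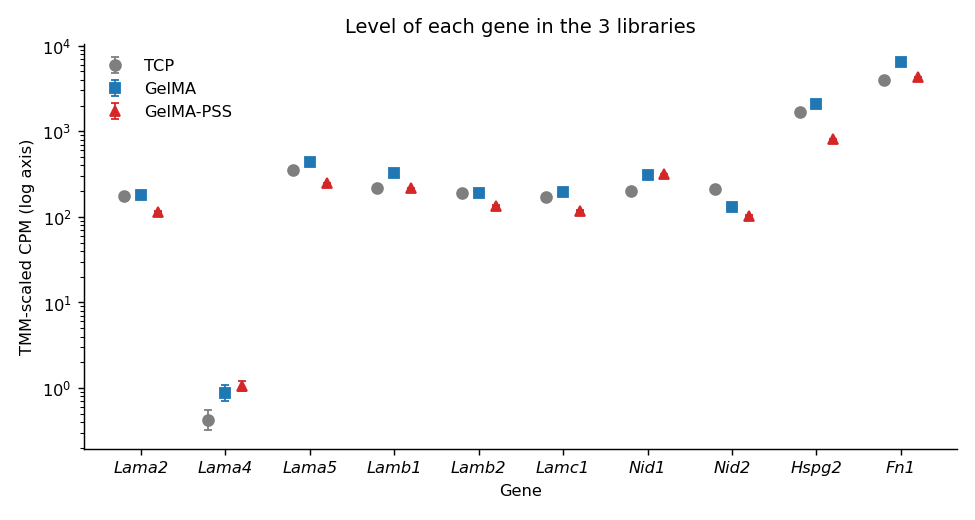
Level of each of the 10 members in the TCP, GelMA and GelMA-PSS libraries, in TMM-scaled CPM on a log axis, 1 point per library, with 95% Wilson intervals that are mostly smaller than the points. Fn1 and Hspg2 stand above the other members and Lama4 stands near 1 CPM. The GelMA-PSS point is the lowest of the 3 for 7 members.

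Of the laminin alpha chains, Lama5, the chain of laminins found in many adult basement membranes (GRCm38, chr2:180176373-180225859, minus strand, 79 exons), was at 356 CPM on TCP, 441 on GelMA and 248 on GelMA-PSS. Lama2, the chain of the main laminin of mature muscle and the gene mutated in a congenital muscular dystrophy (chr10:26980036-27619758, minus strand, 65 exons), was at 175, 178 and 114 CPM. Both were lowest on GelMA-PSS, and the TCP and GelMA intervals of Lama2 overlapped (173 to 178 and 176 to 181). Lama4, the chain of laminins of blood vessels and of developing muscle (chr10:38965515-39110188, plus strand, 38 exons), was at 0.42 CPM on TCP (51 counts), 0.88 on GelMA (79 counts) and 1.05 on GelMA-PSS (193 counts), and passed the limit of 1 CPM through GelMA-PSS alone. Its GelMA and GelMA-PSS intervals overlapped (0.706 to 1.10 and 0.911 to 1.21), and its TCP interval of 0.320 to 0.553 lay below both. Differences between libraries are given as log2 ratios of CPM + 1, which understate those of low genes such as Lama4. Against GelMA, the log2 ratio of GelMA-PSS was -0.82 for Lama5 and -0.64 for Lama2, and against TCP it was -0.52 and -0.62. For Lama4 the log2 ratios were 0.12 and 0.53, and the first turned negative (-0.04) when counts were scaled as TPM, which first divides each count by transcript length. The median of all genes was then -0.36. Corrected for length and GC content, as described below, Lama4 was at 0.56 against GelMA.

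The laminin beta chains had unlike profiles. Lamb1, the beta chain of most embryonic laminins (chr12:31265234-31329644, plus strand, 33 exons), was at 219 CPM on TCP, 322 on GelMA and 215 on GelMA-PSS. Lamb2, the beta chain enriched at the neuromuscular junction (chr9:108479736-108490530, plus strand, 33 exons), was at 191, 188 and 135 CPM. Lamb1 was thus highest on GelMA, with TCP and GelMA-PSS intervals that overlapped (217 to 222 and 213 to 217), whereas Lamb2 was alike on TCP and GelMA, whose intervals also overlapped (189 to 194 and 185 to 191), and lower on GelMA-PSS. The log2 ratio of GelMA against TCP was 0.55 for Lamb1 and -0.02 for Lamb2, and the latter was 0.00 with total-count scaling and 0.02 as TPM. Lamc1, the gamma chain shared by most laminins (chr1:153218922-153332786, minus strand, 28 exons), was at 169 CPM on TCP, 197 on GelMA and 117 on GelMA-PSS, with GelMA-PSS at a log2 ratio of -0.74 to GelMA and -0.53 to TCP.

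Nidogen-1 (Nid1, chr13:13437551-13512269, plus strand, 20 exons) was at 199 CPM on TCP, 312 on GelMA and 313 on GelMA-PSS. Nidogen-2 (Nid2, chr14:19751265-19811787, plus strand, 21 exons), which binds many of the same partners, was at 211 CPM on TCP, 132 on GelMA and 103 on GelMA-PSS. The nidogens were close to each other on plastic and apart on both hydrogels, Nid1 above and Nid2 below its level on TCP. The Nid1 intervals on GelMA and GelMA-PSS overlapped (308 to 315 and 311 to 316). The log2 ratio between them, 0.01, was -0.10 with total-count scaling and -0.42 as TPM, where the medians of all genes were -0.10 and -0.36. Against TCP, Nid1 had log2 ratios of 0.64 on GelMA and 0.65 on GelMA-PSS, and Nid2 had -0.68 and -1.03. In the annotation, 437 bases of the Nid2 gene lie across from Rtraf on the opposite strand, a gene with 21604 counts on TCP, 13196 on GelMA and 45948 on GelMA-PSS. Whether the authors' counting used strand was not given in the sources used here, so reads of the shared stretch could be split between these genes. The Fn1 gene overlaps 364 bases of Apol7d and the Lama2 gene 7360 bases of 4930579H20Rik in the same way, introns included, and these partners had at most 58 and 555 counts.

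Perlecan (Hspg2, chr4:137468769-137570630, plus strand, 97 exons) was at 1700 CPM on TCP, 2067 on GelMA and 803 on GelMA-PSS. The GelMA-PSS level lay far below both controls, with log2 ratios of -1.36 and -1.08 to GelMA and TCP, and Hspg2 went from rank 49 on TCP and 33 on GelMA to rank 184 on GelMA-PSS among all genes by count. At 14176 bases, its transcript is the longest of the members.

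Fibronectin (Fn1, chr1:71585520-71653200, minus strand, 46 exons) was at 4029 CPM on TCP, 6372 on GelMA and 4269 on GelMA-PSS. By count it ranked 11, 5 and 12 among all genes of the respective libraries, and it was highest on GelMA. The log2 ratio of GelMA against TCP was 0.66 and that of GelMA-PSS against GelMA was -0.58. Between GelMA-PSS and TCP it was 0.08, and -0.31 as TPM, where the median of all genes was also -0.31.

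Per kb of transcript, which allows levels of different genes to be compared within a library, Fn1 stood first in every library with 485, 766 and 513 CPM per kb on TCP, GelMA and GelMA-PSS. Perlecan came next with 120, 146 and 56.7 CPM per kb. On GelMA-PSS it was followed closely by Nid1 at 51.5, whereas on TCP the next was Nid2 at 43.3 and on GelMA Lamb1 at 55.6. Lama4 was last in every library, between 0.070 and 0.174 CPM per kb. Fn1 made up 58.8%, 65.9% and 68.2% of the members' summed level per kb, and Hspg2 14.6%, 12.5% and 7.52%.

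The study's methods named a 2-fold threshold, on FPKM values and together with a limit on p, and its results text named 1.5-fold. Past 2-fold on the ratios used here, 1 member was lower on GelMA-PSS than on GelMA (Hspg2), against 2.64% of all genes tested. None was higher, against 1.44%. Relative to TCP, 2 members were lower on GelMA-PSS (Nid2 and Hspg2), against 3.37%, and 0 were higher, against 3.39%. Between GelMA and TCP no member passed 2-fold, where 0.289% of genes were lower on GelMA and 0.729% higher. For Lama4 this depended on the 1 CPM added to each level. With 0.1 CPM added, its log2 ratio to TCP was 1.14 on GelMA-PSS, past 2-fold, and 0.91 on GelMA. As plain CPM, Lama4 was 2.5 and 2.09 times its TCP level on GelMA-PSS and GelMA. Against both controls together, Hspg2 was the 1 member lower (background 1.33%, 175 genes) and 0 were higher (1.12%, 148 genes). Total-count scaling gave 261 genes lower and 97 higher in this comparison and TPM gave 626 and 30, whereas median-of-ratios factors gave 159 and 176 and no filter gave 153 and 180. Hspg2 was the 1 member called under each of these. Its call ended when transcript length was taken into account, with log2 ratios to GelMA and TCP of -0.11 and -0.17 after correction for length and GC content, and of -0.52 and -0.46 after subtraction of the median of the 500 genes nearest in length. At 1.5-fold against both, 2 members were lower (Lama2 and Hspg2), against 7.82% of genes, and 0 were higher, against 7.07%. The comparisons with GelMA and with TCP share the GelMA-PSS library and are not independent of each other.

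On GelMA-PSS the members had a median log2 ratio of -0.58 relative to GelMA and of -0.51 relative to TCP, and on GelMA one of 0.29 relative to TCP, while over all genes tested each median was within 0.01 of 0. Transcript length moved with these ratios. Over the 13053 genes with a length, the Spearman correlation of the log2 ratio with transcript length was -0.66 and -0.50 for GelMA-PSS relative to GelMA and TCP, and 0.21 for GelMA relative to TCP. This correlation is across genes that share the same pair of libraries, and it is given as a description. The members are long, with a median transcript of 6856 bases against 2918 over all genes, and the 2516 genes within their range of 4876 to 14176 bases had median log2 ratios of -0.50, -0.38 and 0.10 in these comparisons. The members' medians therefore lay close to those of other long genes on GelMA-PSS.

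**Figure D2:**
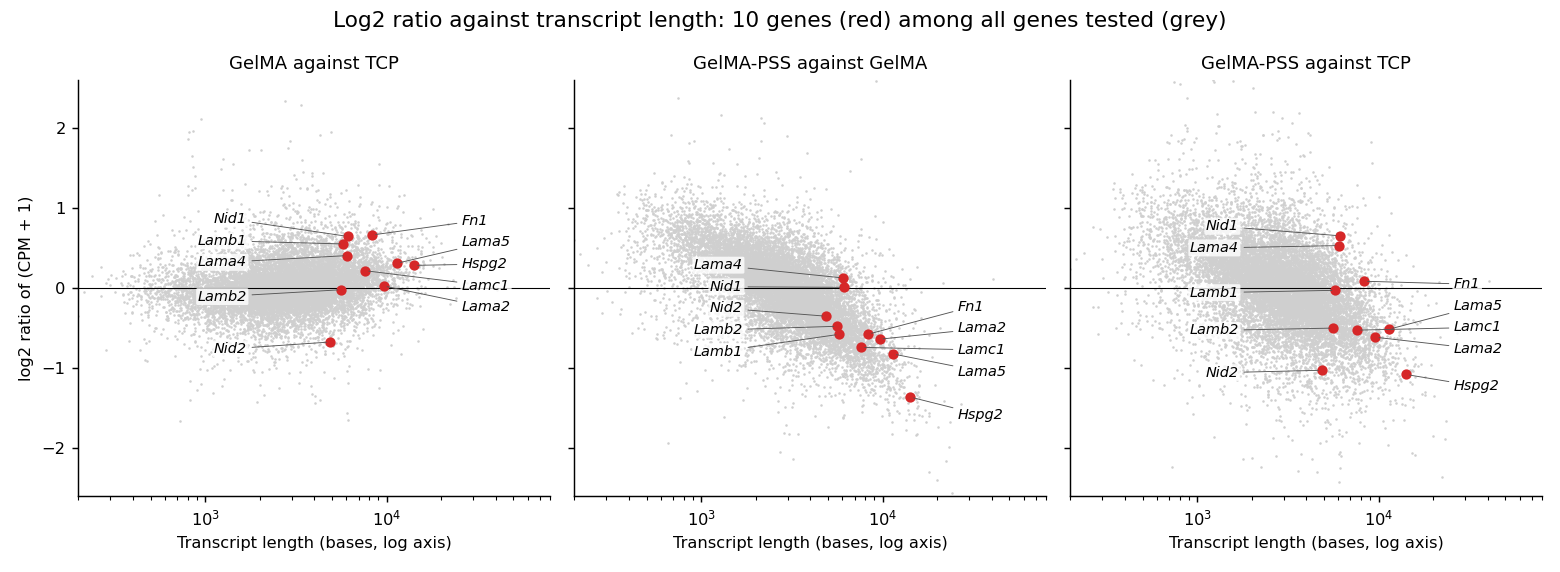
Log2 ratio of CPM + 1 (vertical axis) against transcript length in bases (horizontal axis, log scale) for 13053 genes in grey and the 10 members as labelled points, in 3 panels, 1 per comparison. The grey cloud slopes down with length in both comparisons of GelMA-PSS, and Nid1 lies above and Hspg2 at the low end of the genes of like length. Beyond the axis limit of 2.6 lie 4 genes for GelMA against TCP, 15 for GelMA-PSS against GelMA and 18 for GelMA-PSS against TCP, none of them a member.

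Set beside the 500 genes nearest in length, the members separated. Nid1 was above 91.6% of its 500 neighbours for GelMA-PSS relative to GelMA, above 98.4% relative to TCP, and above 96.8% when GelMA was set against TCP. Nid2 was above 43.6%, 3.80% and 0.60% of its neighbours in the same comparisons, so its low values stood out in both comparisons with TCP and not against GelMA. Fn1 was above 60.6%, 90.6% and 96.2%, and Lamb1 above 27.4%, 75.0% and 94.8%. Lama4 was above 94.8%, 98.0% and 90.2% of its neighbours, on counts of 51 to 193. Hspg2 was above 9.40% and 13.4% of its neighbours for GelMA-PSS relative to GelMA and to TCP, but these ran from 8331 to 23495 bases and most were shorter than perlecan. Lama5 was above 49.8% and 58.6%, and Lama2 above 63.2% and 45.8%, in the comparisons with GelMA-PSS. The alpha chains Lama2 and Lama5 thus had values near the middle of genes of their length. Lamb2 was above 38.4% and 26.8% of its neighbours, and Lamc1 above 33.0% and 42.6%, for GelMA-PSS relative to GelMA and to TCP.

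After smooth fits of the log2 ratios on transcript length and then GC content were subtracted, the members' medians were 0.07 and 0.10 for GelMA-PSS relative to GelMA and TCP, and 0.09 for GelMA relative to TCP. The first pair had changed sign. Hspg2 was then at -0.11 and -0.17 against GelMA and TCP and no longer passed 2-fold, and the part of transcript length in its low level was not tested beyond these values. Nid1 was at 0.45 and 0.99 and Nid2 just below 0 and at -0.76. Fn1 was at 0.15 against GelMA and 0.61 against TCP. Lamb2, lower on GelMA-PSS than on both controls before correction, was at 0.02 and -0.12. Corrected in this way, 3 members were lower on GelMA-PSS than on both controls (Lamc1, Nid2 and Hspg2), against 40.6% of genes, and 4 were higher (Lama5, Nid1, Fn1 and Lama4, the last included only through its GelMA-PSS level), against 40.9%. The corrected log2 ratio of Lama5 was 0.24 against GelMA and 0.26 against TCP, the opposite direction to its uncorrected values. For GelMA against TCP the corrected values were 0.55 for Nid1, 0.51 for Fn1, 0.46 for Lamb1 and -0.73 for Nid2, each within 0.2 of the uncorrected one.

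**Figure D3:**
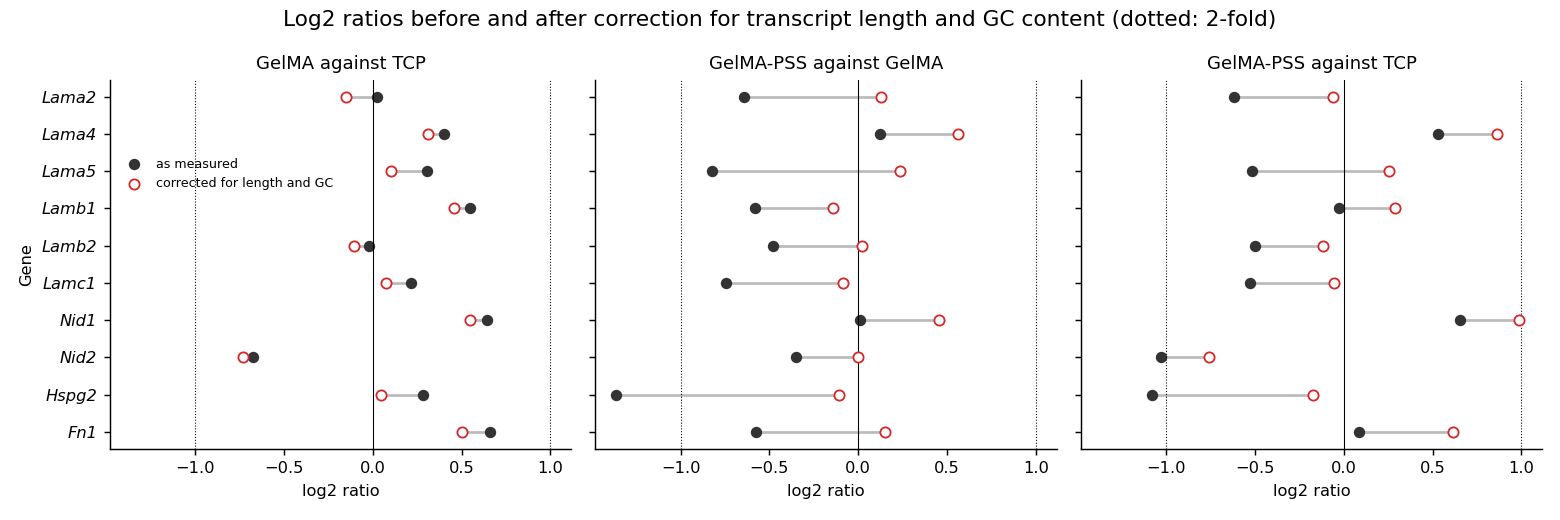
Log2 ratios of the 10 members before and after subtraction of smooth fits on transcript length and GC content, in 3 panels, 1 per comparison (filled points as measured, open points corrected, dotted lines at 2-fold, no error bars, since each substrate had 1 library). In both GelMA-PSS panels every corrected point lies to the right of the measured one, furthest for Hspg2, which moves from -1.36 to -0.11 relative to GelMA, and the shifts are smaller in the panel of GelMA against TCP.

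Ratios of members to each other within a library do not depend on how libraries are scaled. The ratio of Nid1 to Nid2 per kb was 0.755 on TCP (interval 0.741 to 0.768), 1.89 on GelMA (1.85 to 1.93) and 2.43 on GelMA-PSS (2.39 to 2.47). Nid2 was the more abundant nidogen on plastic and Nid1 on both hydrogels. Their sum lay between 72.6 and 78.2 CPM per kb, but unlike the ratio it depends on scaling, and it was not corrected for length. Corrected log2 ratios of GelMA-PSS to GelMA and TCP were 0.45 and 0.99 for Nid1, and just below 0 and -0.76 for Nid2, so the near-constant sum is given for uncorrected levels only. The ratio was 2.51 times as high on GelMA as on TCP and 3.23 times as high on GelMA-PSS, with log2 values of 1.33 and 1.69 that became 1.28 and 1.75 when corrected for length and GC content. The ratio of Lamb1 to Lamb2, whose transcripts differ little in length (5784 and 5629 bases), was 1.12 on TCP, 1.66 on GelMA and 1.55 on GelMA-PSS. Lamb1 was 52.8% of the beta chains on TCP, 62.5% on GelMA and 60.8% on GelMA-PSS, so both hydrogels stood above plastic.

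The alpha chains summed to 49.6, 57.4 and 33.9 CPM per kb, and their ratio to the gamma chain Lamc1 was 2.23 on TCP, 2.22 on GelMA and 2.20 on GelMA-PSS. These ratios are not corrected for length, and after correction the log2 ratios of GelMA-PSS to GelMA were 0.24 for Lama5 and 0.13 for Lama2 but -0.09 for Lamc1, so the near-equal proportion held only without it. The ratio of the beta chains to Lamc1 was 3.24, 3.45 and 3.97, and that of the nidogens to Lamc1 was 3.42, 3.03 and 4.72, also without correction. Between GelMA-PSS and GelMA, the log2 difference of the ratio to Lamc1 went from 0.17 to -0.05 for Lamb1 when corrected for length and GC content. It went from 0.27 to 0.11 for Lamb2, from 0.76 to 0.54 for Nid1 and from 0.39 to 0.08 for Nid2. Within the alpha chains, Lama5 was 63.1%, 67.4% and 64.4% and Lama2 36.8%, 32.3% and 35.1%. The ratio of Fn1 to Hspg2 per kb was 4.04 on TCP, 5.26 on GelMA and 9.06 on GelMA-PSS. Its log2 difference between GelMA-PSS and GelMA was 0.79 and became 0.26 when corrected for length and GC content, and that between GelMA-PSS and TCP was 1.17 and became 0.79.

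**Figure D4:**
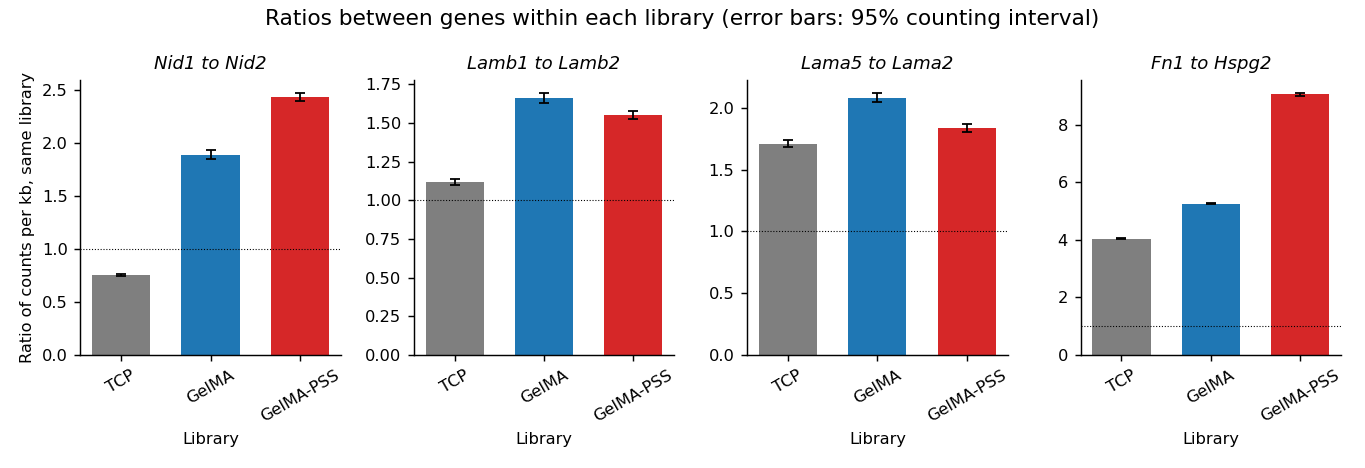
Ratios of members to each other within each library, per kb of transcript, in 4 panels (Nid1 to Nid2, Lamb1 to Lamb2, Lama5 to Lama2, Fn1 to Hspg2), with 1 bar for each of the TCP, GelMA and GelMA-PSS libraries, 95% counting intervals as error bars and a dotted line at 1. Nid1 to Nid2 goes from 0.755 on TCP to 1.89 and 2.43 on the hydrogels, and Fn1 to Hspg2 is highest on GelMA-PSS at 9.06.

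The genes whose pair of log2 ratios against TCP lay nearest to each member were sought among 58 genes of matrix and receptor lists, by Euclidean distance over the 3 libraries. The collagen IV chain Col4a2 was nearest to Lama2, at a distance of 0.03 on the log2 scale, and to Lamb2, at 0.13. Fibulin-2 (Fbln2) was nearest to Lamb1 at 0.03 and to Fn1 at 0.14. The integrin subunit Itga4, with 14.8, 25.5 and 26.0 CPM on TCP, GelMA and GelMA-PSS, was nearest to Nid1 at 0.17. Nid2 was nearest to Itga9, another integrin subunit with 1.44, 0.58 and 0.17 CPM, at 0.05. At such low levels the added 1 CPM shrinks the ratios of Itga9, so this distance does not show that the CPM profiles were alike, and the same holds for Lama4. Col5a1 was nearest to Lamc1 at 0.09, the syndecan Sdc1 to Lama4 at 0.11, and Itgav to Lama5 at 0.12. Hspg2 had no close neighbour on these ratios, its nearest being the integrin subunit Itgb8 at 0.36. The ratios used were not corrected for transcript length, and no distances were taken on corrected values. Once corrected, Hspg2 was at -0.17 for GelMA-PSS against TCP and 0.05 for GelMA against TCP. The integrin subunit Itga6, in the same lists, was then at -0.18 and -0.05, so the distance of 0.36 does not show a singular profile. With 2 ratios per gene, such distances describe profiles and no more.

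Of the laminin chains outside the set, Lamb3, a chain of epithelial laminin, was at 19.5, 19.7 and 20.4 CPM on TCP, GelMA and GelMA-PSS. Lamc3 was at 1.81, 1.21 and 1.07 CPM and Lama3 at 0.70, 0.60 and 0.40. Lama1, a chain of early embryonic laminins, was at 0.13, 0.23 and 0.08 CPM on 16, 21 and 15 counts. Lama1 and Lama3 stayed under the limit of 1 CPM and could not be called. Lamb3 and Lamc3 were tested, and neither passed 2-fold against both controls.

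The counts for the lists that follow stand beside 42.1% of all genes tested that were lower on GelMA-PSS than on both controls and 42.6% that were higher, or 1.33% and 1.12% past 2-fold. Other components of the basement membrane (17 of 22 listed genes tested) were lower in 14 cases and higher in 2, and in 6 and 8 cases once corrected for length and GC content, with median log2 ratios to GelMA and TCP of -0.50 and -0.24, both 0.06 once corrected. The members and this list thus had like medians against GelMA. Past 2-fold against both, 1 gene was lower, Fras1, a large matrix protein of skin and kidney basement membranes, at 13.5, 9.18 and 2.40 CPM. Its transcript of 15848 bases is longer than that of perlecan, and its corrected log2 ratios were -0.36 and -1.25. Col4a1, a chain of the collagen IV network, was at 244, 233 and 147 CPM, and Smoc2, a calcium-binding matrix protein, at 2.57, 2.58 and 1.16. The log2 ratios of Col4a1 to GelMA and TCP, -0.67 and -0.73, became -0.06 and -0.28 once corrected. Those of Smoc2, both -0.73, became -0.75 and -0.75. Fibulin-1 (Fbln1), at 11.0, 27.5 and 32.7 CPM, and Col18a1, at 63.5, 145 and 115, were over 2-fold higher on GelMA than on TCP. Of all genes tested, 0.729% were, and the corrected log2 ratios of Fbln1 and Col18a1 were 1.23 and 1.10. Both genes were named after their values were seen.

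Interstitial matrix genes (18 of 20 tested) were lower than both controls in 7 cases and higher in 2 (3 and 9 once corrected), and 0 passed 2-fold against both. Their median for GelMA against TCP was 0.37, and that of the members was 0.29. Past 2-fold higher on GelMA than on TCP were 3, Tnc, Vcan and Col6a3, against 0.729% of all genes tested. They were also named after their values were seen, and Tnc (tenascin-C) was at 118, 245 and 239 CPM. The log2 ratios of Tnc, Vcan and Col6a3, 1.05, 1.17 and 1.01, became 0.92, 0.97 and 0.82 once corrected, no longer past 2-fold. Thbs1 (thrombospondin-1), at 1235, 914 and 526 CPM, and Ltbp1, which holds latent TGF-beta in the matrix, at 158, 118 and 74.7, were lowest on GelMA-PSS. Postn (periostin), at 19.9, 21.7 and 39.0 CPM, was highest there. Corrected log2 ratios to GelMA and TCP were -0.39 and -0.92 for Thbs1, -0.14 and -0.70 for Ltbp1, and 0.70 and 0.83 for Postn.

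Of the receptors for laminin and fibronectin, 20 of 23 were tested, 11 were lower than both controls and 6 higher (9 and 8 once corrected), and 0 passed 2-fold against both, with medians of -0.15 against GelMA and -0.17 against TCP. Dag1, which encodes dystroglycan, the receptor that binds laminin alpha chains and perlecan, was at 729, 546 and 343 CPM. Its log2 ratios to GelMA and TCP of -0.67 and -1.09 became -0.24 and -0.77 when corrected for length and GC content. Itgb8 was at 5.41, 6.71 and 2.88 CPM and Itgb6 at 25.0, 22.1 and 13.9. Corrected log2 ratios to GelMA and TCP were -0.44 and -0.34 for Itgb8 and -0.45 and -0.67 for Itgb6. Genes that build the glycan of dystroglycan to which laminin binds (17 of 18 tested) were lower than both controls in 9 cases and higher in 5 (7 and 8 once corrected). Among them Dpm3, a subunit of dolichol-phosphate-mannose synthase, at 4.69, 4.28 and 11.6 CPM, was the 1 gene past 2-fold higher, and Dpm1 of the same enzyme was at 4.56, 4.24 and 7.07. The Dpm3 transcript is short, at 827 bases, and its log2 ratios of 1.25 and 1.14 became 0.75 and 0.71 once corrected, no longer past 2-fold, while those of Dpm1 became 0.37 and 0.34. Genes of heparan sulfate synthesis and modification (20 of 24 tested), which act on the chains that perlecan carries, were lower in 8 cases and higher in 6 (5 and 10 once corrected) with 0 past 2-fold. In that list Extl1 was at 6.12, 5.75 and 2.85 CPM and Extl3 at 93.7, 104 and 60.7. The 6-O-sulfotransferase Hs6st1 was at 49.3, 43.9 and 28.6 CPM. Corrected log2 ratios to GelMA and TCP were -0.54 and -0.67 for Extl1, -0.27 and -0.25 for Extl3, and -0.39 and -0.60 for Hs6st1. All of these were lower on GelMA-PSS than on both controls. Among the genes higher there, Ext1 was at 265, 294 and 391 CPM and Hpse at 2.22, 5.25 and 8.39. Their corrected log2 ratios were 0.94 and 0.94 for Ext1 and 0.59 and 1.55 for Hpse, and both were named after their values were seen. The medians of that list were -0.07 and 0.03 relative to GelMA and TCP, and 0.05 and 0.16 once corrected, where the members had 0.07 and 0.10.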

How the data were processed

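RNA of C2C12 cells on TCP, GelMA and GelMA-PSS was sequenced as 1 library each, with strand-specific paired-end reads per the study's methods, which name another library kit than the sample labels. The authors deposited whole-number read counts per gene symbol. Their processing notes name TopHat, edgeR, mm10 and hg19 without versions or roles, and the counting tool, annotation and use of strand were not given in the sources used here. In each library more symbols had a count of 2 than of 1, so counts may not be independent molecules and intervals may be too narrow.

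Symbols given on more than 1 of the 23282 lines (35) were summed, which left 23238. The 13163 genes that reached a CPM of 1 on any substrate were tested and scaled by TMM (edgeR 4.0.16), and ratios are of log2(CPM + 1). A gene was called past 2-fold, with no test. Lengths, GC content and coordinates came from GENCODE vM21 (GRCm38), with length and GC content taken from 1 transcript per gene, and with 22197 symbols matched directly, 669 by an older symbol and 372 not. Loess fits (statsmodels 0.14.6, span 0.3) on length and then GC content were subtracted as an alternative. Scripts ran in Python 3.11.15 and were tested on simulated data. Named genes were all members, the other laminin chains, up to 3 genes per list with the largest log2 ratio on the same side of both controls (by the nearer control), the nearest profile of each member and cell type markers. Members, lists and the rule were chosen with earlier results of these data known. Some genes that this rule names are not reported here. Promoters of 6 members came from RefSeq.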

Additional observations from a re-analysis of the deposited data

How the results depend on the processing

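The count of members more than 2-fold lower on GelMA-PSS than on both controls was 1, was 2 at 1.5-fold, and was 0 after the length and GC correction and after subtraction of the median of the 500 genes nearest in length. That of members higher was 0 under every alternative run. The members' median for GelMA-PSS against GelMA (-0.58) was -0.69 with total-count scaling, -0.54 with median-of-ratios factors, -0.54 with no filter, -1.003 as TPM, 0.0746 after the length and GC correction, where it changed sign, and -0.0208 after subtraction of genes near in length. Against TCP (-0.51) it was -0.59 with total-count scaling, -0.88 as TPM, 0.102 after the length and GC correction and 0.0267 after subtraction of genes near in length, a change of sign in both cases. For GelMA against TCP (0.29) it was 0.0874 after the length and GC correction and 0.113 after subtraction of genes near in length. Both corrections remove the trend with length by construction, and the cause of that trend was not tested. As TPM the median of all genes moved by -0.36, -0.31 and 0.04 in these comparisons, and the members' medians relative to it were -0.64, -0.57 and 0.25. With a pseudocount of 0.1 the medians were -0.58, -0.51 and 0.30, and without Lama4, an alternative chosen after seeing the data, -0.58, -0.52 and 0.28. No paired analysis was possible because each substrate had 1 library, and for the same reason no library could be left out.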
